A study of Homo sapiens with 14 samples.

Results

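MYCN, MYC, MAX, MLX, MXD1, MXD3, MXD4, MXI1, MNT and MGA belong to one network of transcription factors, and their mRNA was followed here in CHP-134, an established human neuroblastoma line in which MYCN is amplified. The genes were taken by symbol from the tables of gene counts, and all 10 were found in both, among 19726 gene identifiers listed in either table. The members were chosen by name and not by their values, although earlier results of these data were known when they were chosen. RNA-seq of ribosome-depleted total RNA was collected from 14 libraries in a pair of experiments. In the first, engineered CHP-134 cells carrying a lentiviral, doxycycline-inducible (Tet-On) transgene received 1 µg/ml doxycycline for 3 days, which induced EGFP in 3 control libraries and OmoMYC in 3 libraries. In the second, unmodified parental CHP-134 cells received 500 nM dTAG47 or the DMSO vehicle for 18 h, with 4 libraries in each group. dTAG47 is a compound that recruits an E3 ligase to proteins carrying a mutant FKBP12 tag. The parental cells carry no such tag, so this experiment served as the control for the compound. EGFP and OmoMYC cells both received doxycycline in tetracycline-approved serum and the parental cells neither, so the 2 experiments were analysed apart.

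MYC proteins, N-MYC included, bind DNA as dimers with MAX, mostly at the E-box CACGTG, and there recruit coactivators. The MXD proteins, MXI1 (which is also an MXD protein), MNT and MGA compete for MAX and bind the same kind of site, the MXD proteins and MNT with the SIN3 and histone deacetylase corepressors and MGA within the Polycomb-type complex PRC1.6. MLX stands beside MAX as the partner of MLXIP and MLXIPL, which respond to glucose metabolites, and it also pairs with MXD1, MXD4 and MNT. In neuroblastoma, amplified MYCN is the main MYC gene and MYC itself is usually low. OmoMYC is derived from the part of MYC through which it binds partners and DNA, with mutations that let it form dimers with itself, with MAX and with MYC proteins, and it occupies E-boxes without activating transcription.

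Because these factors bind E-boxes, the promoters of the members were searched for one. RefSeq promoter windows on build GRCh38.p14, from 250 bases before to 50 bases after an annotated start, were at hand for 9 members (all but MYC) in 14 windows. CACGTG, which reads the same on both strands, was found in 3 of these windows, those of MXD4, MNT and MLX, and in 7.26% of the 35116 windows of all genes. No window of MXD1, MXD3 or MYCN held CACGTG, although these members also differed between EGFP and OmoMYC. MLX, which holds it, was the only member whose EGFP and OmoMYC libraries overlapped. The stretches are printed because MXD4 and MNT are among the members that differed most between EGFP and OmoMYC. They are shown on the strand of the gene, 5′ to 3′, with the E-box in capitals.
MXD4, chr4:2262315-2262359, minus strand, E-box beginning 238 bases before the start: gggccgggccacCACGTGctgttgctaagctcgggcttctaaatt
MNT, chr17:2401221-2401280, minus strand, E-box beginning 193 bases before the start: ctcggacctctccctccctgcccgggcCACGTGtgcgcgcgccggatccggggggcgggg
MLX, chr17:42567023-42567082, plus strand, E-box beginning 50 bases before the start: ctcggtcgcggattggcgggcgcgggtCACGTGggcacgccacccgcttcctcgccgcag
A match in these letters is a description of the sequence only, since binding was not measured here.

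The libraries held 28060817 to 38358128 counts in the OmoMYC experiment and 40861430 to 53451641 in the parental experiment. Replicate libraries were compared over genes by chi-square divided by its degrees of freedom, which is 1 when they differ by read sampling alone. This ratio was 2.87 to 9.06 among OmoMYC libraries but 8.32 to 44.6 among EGFP libraries, where replicate 1 stood apart (22.2 against replicate 2 and 44.6 against replicate 3). In parental cells, DMSO replicates 1 and 2 (2.68) and DMSO replicates 3 and 4 (3.23) were closer to each other than across these pairs (9.06 to 11.7), and results are therefore also given with a factor for replicates 1 and 2 against 3 and 4. The dTAG47 libraries followed this split only in part: replicates 3 and 4 were close (2.71), but replicates 1 and 2 (8.49) were no closer than replicates 1 and 3 (5.89), and replicate 2 stood apart from replicates 3 (15.4) and 4 (23.5). The study's methods call the libraries of each group biological replicates without saying how they were separated, and p-values measure the spread between these libraries. In bulk RNA, fewer cells with a transcript and less of it per cell cannot be told apart. Of the markers of adrenergic neuroblastoma cells, the transcription factor genes GATA3 and HAND2 were at 303 ± 17.6 and 258 ± 19.8 CPM with EGFP and at 323 ± 14.6 and 275 ± 12.2 CPM with OmoMYC (SD, n = 3 each), whereas the catecholamine enzymes TH and DBH were near or below 1 CPM in these libraries. The summed level of 8 mesenchymal markers was 546 to 571 CPM with EGFP and 436 to 452 CPM with OmoMYC, all 8 being above 1 CPM in both groups. It was 472 to 493 CPM over the parental libraries. The markers did not all move together between EGFP and OmoMYC. At an adjusted p-value below 0.05 in edgeR's quasi-likelihood test, 5 of the 8 were lower, 1 was higher and 2 did not pass. TWIST1 (means of 283 and 211 CPM) and VIM (136 and 110 CPM), the largest parts of the sum, were lower in OmoMYC cells. COL1A1 was the higher one (21.2 and 31.5 CPM, adjusted p = 0.00466). The blood markers listed (4 in the parental table and 2 in the OmoMYC table) summed to at most 1.22 CPM in any library, and the epithelial markers listed (4 and 3) to at most 1.61 CPM except for 6.29 CPM in 1 dTAG47 library. The part of the mesenchymal difference in the results below was not tested.

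Expression is given as CPM, counts scaled to a common library total after adjustment of library size by edgeR's TMM method, and a gene is said to be called, induced or suppressed when its adjusted p-value (FDR) from edgeR's quasi-likelihood test was below 0.05 over all genes tested. Of the 6 MAX-binding repressors (MXD1, MXD3, MXD4, MXI1, MNT and MGA), 3 were higher and 1 was lower with OmoMYC and 2 were not called. MXD4, MXD1 and MNT were induced, by log2 fold changes of 1.07, 0.74 and 0.66, MXD3 and MYCN were suppressed, by -0.49 and -0.28, and MAX, MXI1, MGA and MLX were not called. All 10 members passed the filter on low counts. Including the MYC entry, 6 of the 10 were called, 4 higher and 2 lower, against a background of 53% of the 13803 genes tested (27.3% higher and 25.7% lower), so the share of members called was near that of all genes. The libraries of the 2 groups did not overlap for 9 of 10 members (62.3% of all genes), and 8 members had an unadjusted p-value under 0.05 (59.2% of all genes). An exact permutation test on 1 gene (2-sided) has 0.1 as its smallest p-value at this group size.

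**Figure D1:**
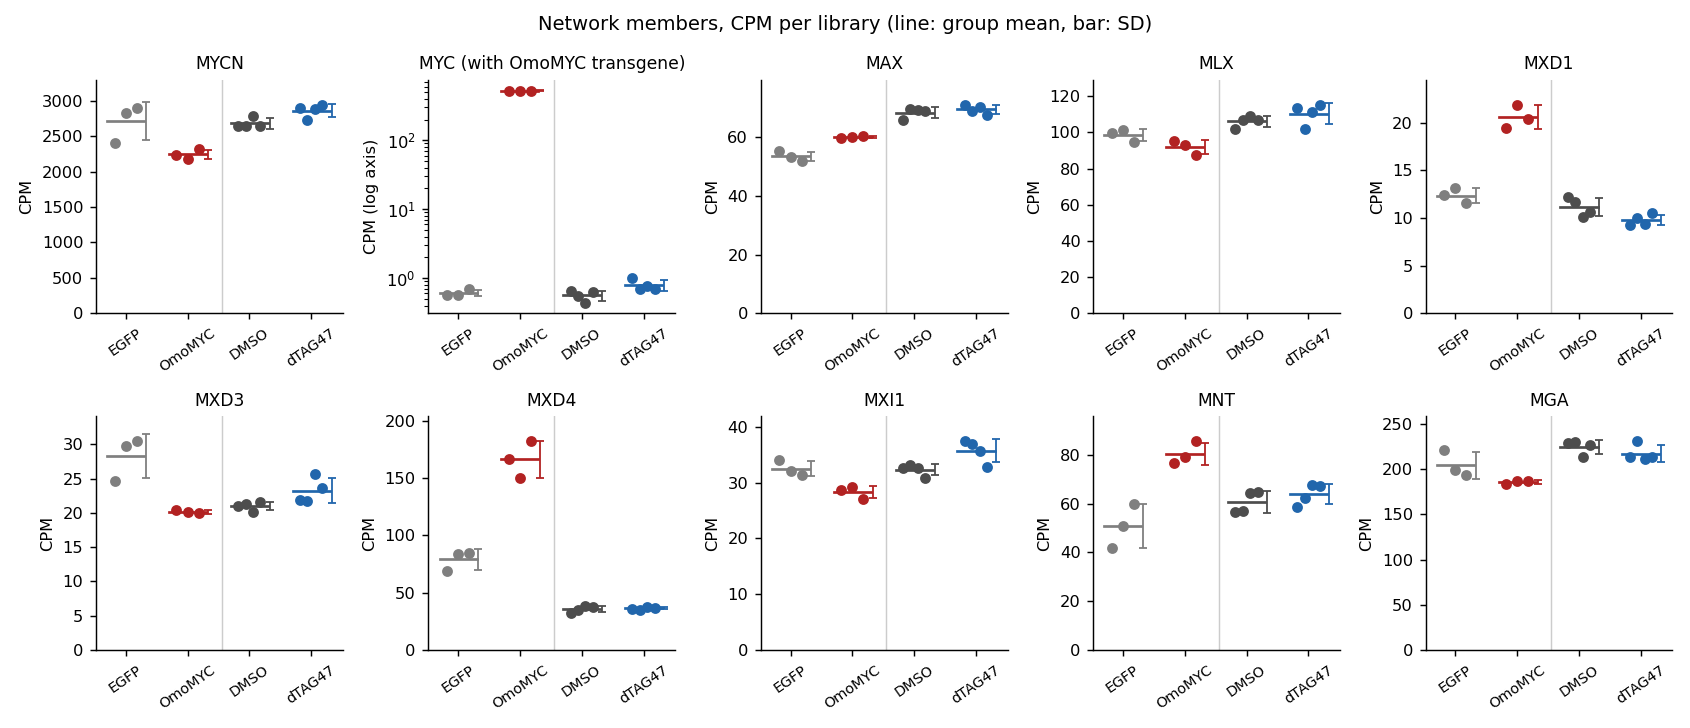
CPM of the 10 network members in each library (points), with the group mean (line) and SD (bar), for EGFP and OmoMYC (n = 3 each) and DMSO and dTAG47 (n = 4 each). Axes start at 0 except for MYC, which is on a log axis. OmoMYC libraries lie above EGFP libraries for MXD1, MXD4 and MNT and below them for MYCN and MXD3, while DMSO and dTAG47 libraries overlap for all members but MYC and MXD3.

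The MYC entry (ENSG00000136997.10, hg19 chromosome 8 from 128747680 to 128755197, plus strand) serves as a check of the labels. It held 18, 16 and 20 counts in the EGFP libraries and 15040, 20295 and 16004 counts in the OmoMYC libraries. In CPM this was 0.610 ± 0.0684 and 522 ± 7.85 (SD, n = 3 each), and no OmoMYC library was near an EGFP library. Counts per gene cannot separate endogenous MYC from the MYC-derived transgene, so this entry shows that the transgene was induced where the labels say and gives no level of endogenous MYC in OmoMYC cells. Leaving the entry out before scaling left 5 of the other 9 members called, 3 higher and 2 lower.

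MYCN (ENSG00000134323.10, chromosome 2 from 16080672 to 16087129, plus strand), which encodes N-MYC, was at 2408, 2830 and 2900 CPM with EGFP and at 2227, 2182 and 2312 CPM with OmoMYC. Each OmoMYC library was below each EGFP library, but the lowest EGFP library, replicate 1, was only slightly above the highest OmoMYC library. The means were 2713 ± 266 and 2240 ± 66.0 CPM (SD, n = 3 each), a ratio of 0.826. On the log2 scale this was -0.28 ± 0.07 (standard error after ±, adjusted p = 0.0103), and 55.0% of all tested genes had a larger absolute change. When a trend of counts on GC content and transcript length was removed from each library, an alternative added after the data were seen, it became -0.48 (adjusted p = 2.52e-09). The start of MYCN overlaps the antisense gene MYCNOS in the annotation, and the strand setting of the counts is not given in the sources used here, so reads of that overlap cannot be assigned to one strand.

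MAX (ENSG00000125952.14, chromosome 14 from 65472892 to 65569413, minus strand), the shared partner of the MYC and MXD proteins, was at 55.2, 53.1 and 51.9 CPM with EGFP and at 59.8, 59.9 and 60.4 CPM with OmoMYC. The groups did not overlap. Its log2 fold change was 0.17 (95% interval 0.03 to 0.30, adjusted p = 0.0591), which missed the threshold, and it was 0.18 (adjusted p = 0.0292) without EGFP replicate 1. MLX (ENSG00000108788.7, chromosome 17 from 40719090 to 40725257, plus strand) was at 99.9, 101 and 94.96 CPM with EGFP and at 95.1, 93.2 and 87.7 CPM with OmoMYC. MLX was the only member whose groups overlapped, and its log2 fold change was -0.10 (95% interval -0.24 to 0.03, adjusted p = 0.239). With the GC and length trend removed, MAX was 0.06 (adjusted p = 0.319) and MLX was called at -0.18 (adjusted p = 0.00181).

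Among the repressors, MXD4 (ENSG00000123933.10, chromosome 4 from 2249159 to 2263836, minus strand) had the largest change. It was at 68.7, 83.6 and 84.7 CPM with EGFP and at 167, 149.8 and 182 CPM with OmoMYC. The lowest OmoMYC library was well above the highest EGFP library. MXD4 rose from 79.0 ± 8.95 to 166 ± 16.0 CPM (SD, n = 3 each), or 2.10-fold, which is 1.07 on the log2 scale with a standard error of 0.10 (adjusted p = 1.57e-05), and 7.46% of all tested genes had a larger absolute change. The size of the rise depended on the processing. Over 11 other settings of method, scaling, filter, block and correction, the log2 fold change of MXD4 was 0.76 to 1.09, and it was called in all 11.

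MXD1 (ENSG00000059728.6, chromosome 2 from 70124820 to 70170077, plus strand), the first-described MYC antagonist of the family, was at 12.4, 13.1 and 11.5 CPM with EGFP and at 19.4, 21.9 and 20.4 CPM with OmoMYC. Replicates of both groups were close together and the groups were far apart. The rise was 1.67-fold, or 0.74 ± 0.09 on the log2 scale (standard error after ±, adjusted p = 0.000117).

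MNT (ENSG00000070444.10, chromosome 17 from 2287367 to 2304398, minus strand), a MAX-binding repressor present in most cell types, was at 41.8, 50.8 and 60.0 CPM with EGFP and at 76.7, 79.0 and 85.4 CPM with OmoMYC. Its EGFP libraries were spread over a wide range, but all of them were below the OmoMYC libraries. The rise was 1.58-fold, or 0.66 ± 0.12 on the log2 scale (standard error after ±, adjusted p = 0.000947). With the GC and length trend removed the log2 fold change of MNT was 0.28 (adjusted p = 4.22e-05). The longest annotated transcripts of MNT and MXD3 have a similar GC content (61.3% each), but MXD3 fell more under this correction.

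MXD3 (ENSG00000213347.6, chromosome 5 from 176728462 to 176739758, minus strand), a family member known for expression in dividing cells in S phase, moved the other way. It was at 24.6, 29.8 and 30.4 CPM with EGFP and at 20.5, 20.1 and 19.96 CPM with OmoMYC. The OmoMYC libraries were nearly equal and all were below the EGFP libraries. On the log2 scale MXD3 fell by 0.49, with a standard error of 0.10 (adjusted p = 0.00181), and the change was -0.75 (adjusted p = 5.49e-09) with the GC and length trend removed.

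MXI1 (ENSG00000119950.16, chromosome 10 from 111967363 to 112047123, plus strand) was at 34.0, 32.2 and 31.4 CPM with EGFP and at 28.7, 29.2 and 27.04 CPM with OmoMYC. The groups did not overlap, but the log2 fold change of -0.20 (95% interval -0.35 to -0.05, adjusted p = 0.0507) just missed the threshold. MXI1 was called with DESeq2 (-0.22, adjusted p = 0.0427), limma-voom (adjusted p = 0.0498), RLE factors (adjusted p = 0.0418) and upper quartile factors (adjusted p = 0.0324), and without EGFP replicate 1 (-0.18, adjusted p = 0.0482) or EGFP replicate 3 (-0.26, adjusted p = 0.0183). It was -0.08 (adjusted p = 0.228) with the GC and length trend removed. MGA (ENSG00000174197.12, chromosome 15 from 41913332 to 42065279, plus strand), the scaffold of PRC1.6, was at 221, 198 and 193 CPM with EGFP and at 183, 187 and 187 CPM with OmoMYC. Its log2 fold change was -0.14 (95% interval -0.27 to -0.00, adjusted p = 0.120). MGA was called without EGFP replicate 3 (-0.21, adjusted p = 0.0222) and with the GC and length trend removed (-0.15, adjusted p = 0.00113).

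**Figure D2:**
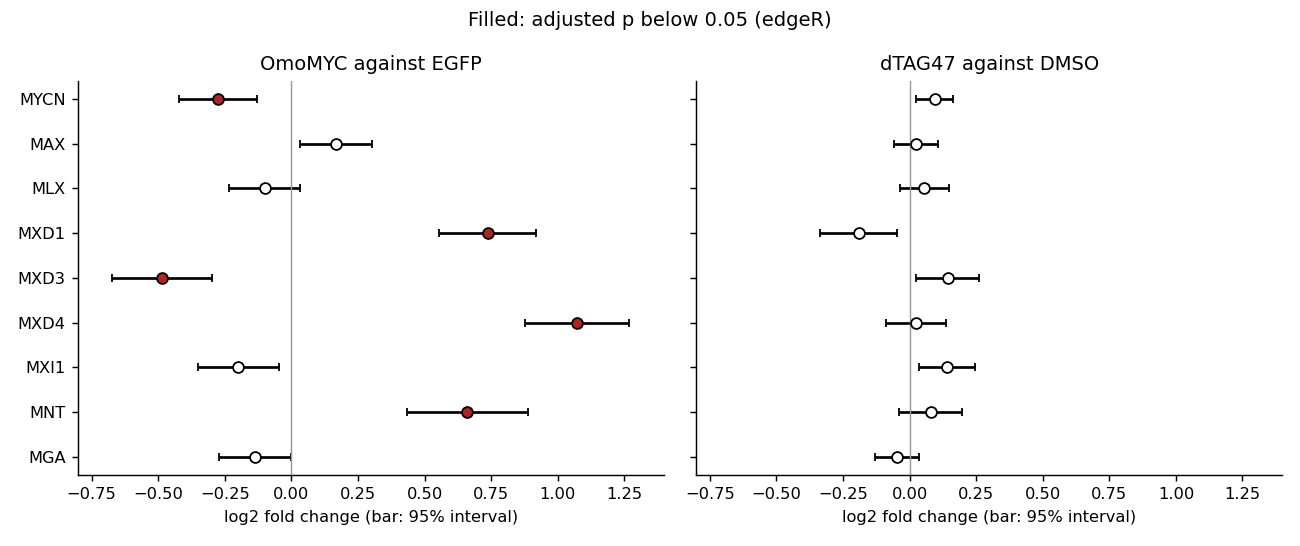
Log2 fold change (points) with its 95% interval (bars) of the 9 members other than MYC, for OmoMYC against EGFP and dTAG47 against DMSO, with filled points for adjusted p below 0.05 in edgeR's quasi-likelihood test. MXD4 at 1.07, MXD1 at 0.74, MNT at 0.66, MXD3 at -0.49 and MYCN at -0.28 are filled on the OmoMYC side and no point is filled on the dTAG47 side.

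The calls of MYCN, MXD1, MXD3, MXD4 and MNT did not depend on any single library: each was kept in all 6 fits that left one out. The log2 fold change was -0.37 to -0.26 for MYCN, 0.66 to 0.78 for MXD1, -0.59 to -0.46 for MXD3, 0.96 to 1.11 for MXD4 and 0.52 to 0.77 for MNT. Without EGFP replicate 1, the control library that stood apart, 8 of 10 members were called (5 higher and 3 lower), and without EGFP replicate 3, 8 were called as well (4 higher and 4 lower). The directions of all 10 members were those given above under each of the scaling methods and corrections tried. When edgeR's glmTreat asked for a change larger than 1.5-fold, MXD4 and the MYC entry were called and the others were not.

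**Figure D3:**
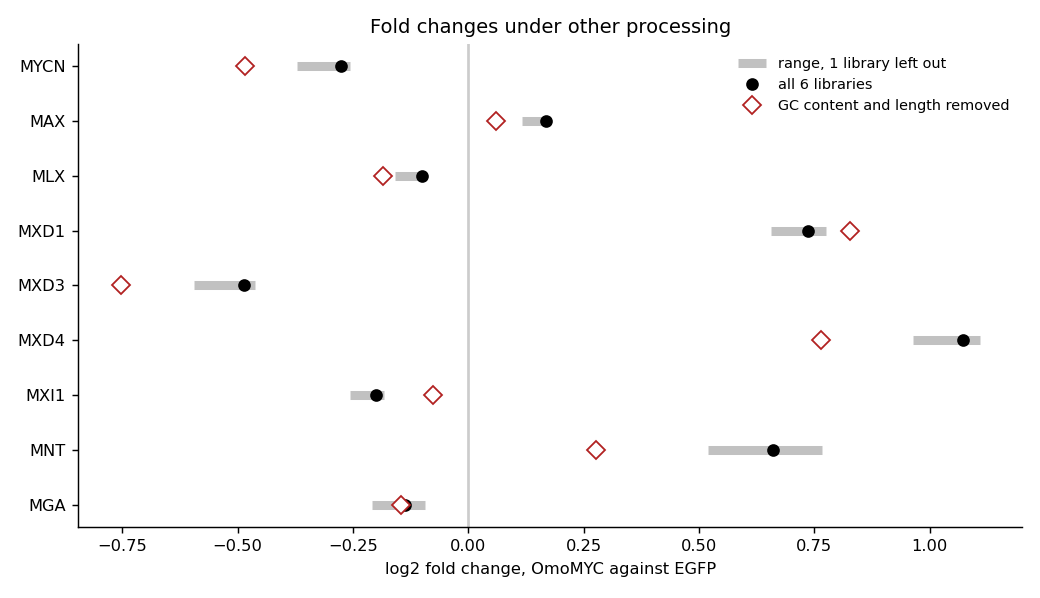
Log2 fold change of 9 members, OmoMYC against EGFP, from all 6 libraries (black points), over the 6 fits that leave out 1 library (grey bars), and with the trend on GC content and length removed (open diamonds). Every member keeps its side of 0, MNT moves from 0.66 to 0.28, and MYCN and MXD3 move away from 0, to -0.48 and -0.75.

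To compare levels between genes, CPM was divided by the summed length of a gene's annotated exons, which gives RPKM. The annotation behind these lengths may differ from the one used for counting, so RPKM carries this uncertainty. MYCN was by far the highest member in every group, at 985 RPKM with EGFP, 813 with OmoMYC, 972 with DMSO and 1038 with dTAG47. MLX came next in 3 groups, at 23.2 RPKM with EGFP, 24.96 with DMSO and 25.9 with dTAG47. In EGFP cells the order went on with MXD4 (11.5), MGA (10.2), MAX (8.54), MXD3 (5.96), MNT (5.84), MXI1 (5.51) and MXD1 (1.95), and MYC was last at 0.0998 RPKM. The ranges of EGFP libraries overlapped between the neighbours MXD4 and MGA, MXD3 and MNT, and MNT and MXI1, so their order is not resolved. With the longest annotated transcript as the length, the order also turned for 3 pairs of neighbours whose ranges did not overlap: MGA and MAX with EGFP (14.01 and 16.93 RPKM), MXI1 and MXD3 with OmoMYC (8.16 and 8.85 RPKM) and MXD4 and MXD3 with DMSO (8.49 and 9.22 RPKM).

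In OmoMYC cells, MXD4 was at 24.2 RPKM beside MLX at 21.6 RPKM, with ranges that overlapped. MAX (9.59), MGA (9.25) and MNT (9.24) followed, and MXI1 (4.80), MXD3 (4.25) and MXD1 (3.24) were lowest apart from the MYC entry, which was not ranked. MGA and MNT overlapped. In DMSO cells, MGA (11.2) and MAX (10.9) overlapped, followed by MNT (6.96), MXI1 (5.48) and MXD4 (5.22), of which the latter pair overlapped, then MXD3 (4.43), MXD1 (1.76) and MYC (0.0925). In dTAG47 cells the order was the same except that MAX (11.1) stood before MGA (10.8), with ranges that overlapped, as did those of MXD4 (5.31) and MXD3 (4.90).

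**Figure D4:**
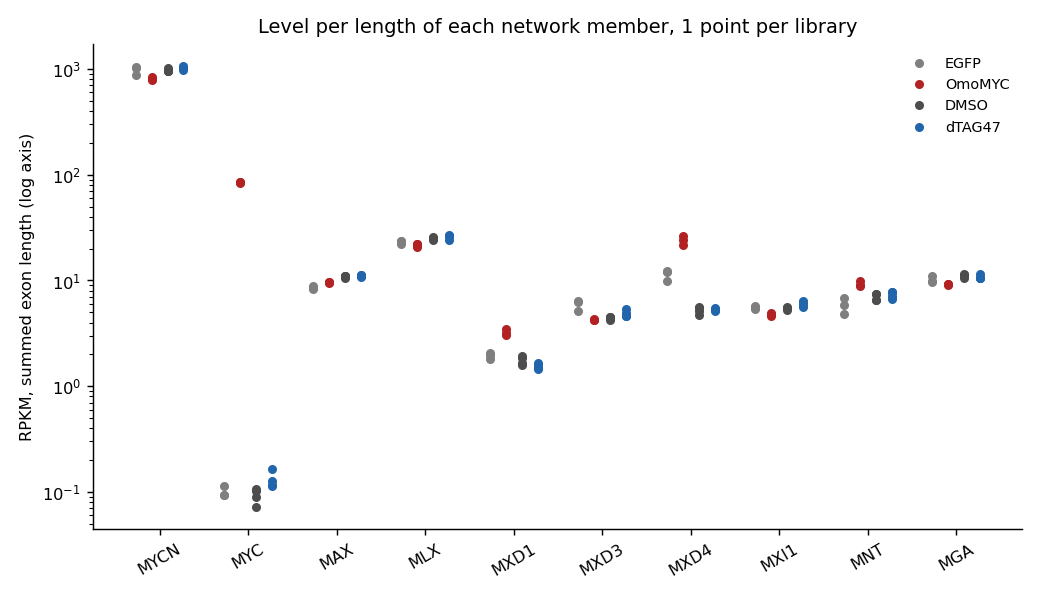
RPKM of each member (log axis), 1 point per library, coloured by group. MYCN has group means of 813 to 1038, MXD4 is the repressor that shifts most between groups, and MYC is lowest except in OmoMYC libraries, where the entry also holds the transgene.

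Summed over the 6 repressors (MXD1, MXD3, MXD4, MXI1, MNT and MGA), the level was 40.9 ± 2.0 RPKM with EGFP and 54.9 ± 2.43 RPKM with OmoMYC (SD, n = 3 each). The range was 38.7 to 42.4 with EGFP and 52.8 to 57.6 with OmoMYC. MXD4 made up 28.02% ± 1.91 of this sum with EGFP and 43.9% ± 2.38 with OmoMYC, while MGA made up 24.9% ± 3.06 and 16.9% ± 0.721 (SD, n = 3 each). The ratio of MYCN to the summed repressors was 24.0 ± 1.24 with EGFP and 14.8 ± 0.216 with OmoMYC (SD, n = 3 each). MYCN was 93.1% of the summed RPKM of the 9 members other than MYC with EGFP and 90.4% with OmoMYC. In parental cells the summed repressors were at 35.02 ± 0.453 RPKM with DMSO and 35.9 ± 0.714 RPKM with dTAG47, and the ratio of MYCN to them was 27.8 ± 0.850 and 28.9 ± 1.26 (SD, n = 4 each). These are ratios of mRNA levels built from the same counts as the tests above, and they carry no test of their own. Neither the sums nor the ratios were recomputed with the GC and length trend removed, a correction under which MNT rose less with OmoMYC and MXD3 fell more.

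dTAG47 in parental cells, the control for the compound, called no network member in the main fit, which had no factor for replicates. Of the 14470 genes tested, 0.159% were called (0.117% higher and 0.0415% lower). At an unadjusted p-value under 0.05, 5 members passed (MYCN, MYC, MXD1, MXD3 and MXI1), against 7.28% of all genes, and the groups did not overlap for MYC and MXD3 (3.34% of all genes). DESeq2 and limma-voom called no member either. With the factor for replicates 1 and 2 against 3 and 4, MYCN and MXI1 were called, among 794 genes called of the 14470 tested.

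MYCN was at 2636, 2643, 2790 and 2647 CPM with DMSO and at 2894, 2721, 2881 and 2941 CPM with dTAG47. A single dTAG47 library, replicate 2, was below the highest DMSO library. The log2 fold change was 0.09 (95% interval 0.02 to 0.16, adjusted p = 0.673). With a factor for replicates 1 and 2 against 3 and 4 it was 0.09 and was called (adjusted p = 0.0450), with replicates 3 and 4 alone it was 0.10 (adjusted p = 0.0320), and with the GC and length trend removed it was 0.04 (adjusted p = 0.578).

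MYC was counted at 30, 26, 18 and 32 with DMSO and at 43, 38, 39 and 36 with dTAG47. Although each dTAG47 library was above each DMSO library, the entry stayed at or near 1 CPM or below, at 0.565 ± 0.0932 CPM and 0.797 ± 0.147 CPM (SD, n = 4 each). The log2 fold change was 0.47 (95% interval 0.06 to 0.88, adjusted p = 0.673).

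MXD1 was at 12.2, 11.7, 10.1 and 10.6 CPM with DMSO and at 9.29, 9.97, 9.38 and 10.5 CPM with dTAG47, with an overlap of the groups and a log2 fold change of -0.19 (95% interval -0.33 to -0.05, adjusted p = 0.673). MXD3 was at 21.0, 21.2, 20.2 and 21.6 CPM with DMSO and at 21.9, 21.8, 25.6 and 23.6 CPM with dTAG47. These groups did not overlap, by a small margin in replicates 1 and 2, and the log2 fold change was 0.14 (95% interval 0.03 to 0.26, adjusted p = 0.673). With replicates 3 and 4 alone, MXD3 was called (0.23, adjusted p = 0.00915).

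MXI1 was at 32.7, 33.2, 32.6 and 30.8 CPM with DMSO and at 37.4, 36.9, 35.6 and 32.8 CPM with dTAG47. Only dTAG47 replicate 4 fell among the DMSO libraries. The log2 fold change was 0.14 (95% interval 0.04 to 0.25, adjusted p = 0.673), and MXI1 was called with the factor for replicates 1 and 2 against 3 and 4 (adjusted p = 0.0340) and with the GC and length trend removed (0.15, adjusted p = 0.0469).

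The other 5 members were closer to 0 after dTAG47. MXD4 was at 32.5, 35.01, 38.6 and 37.4 CPM with DMSO and at 35.9, 35.3, 37.9 and 36.8 CPM with dTAG47, and every dTAG47 library lay within the DMSO range. Its log2 fold change was 0.02 (95% interval -0.09 to 0.14), and its sign turned to -0.02 with the GC and length trend removed. MNT ranged from 56.5 to 64.6 CPM with DMSO and from 58.7 to 67.6 CPM with dTAG47, and its log2 fold change was 0.08 (95% interval -0.04 to 0.20). MAX was at 65.7 to 69.5 CPM and 67.6 to 71.0 CPM, a log2 fold change of 0.02 (95% interval -0.06 to 0.11) whose sign also turned, to -0.01, with the GC and length trend removed. MGA was at 213 to 229.6 CPM and 211 to 230.4 CPM, a log2 fold change of -0.05 (95% interval -0.13 to 0.04) that became 0.00 under the same correction. MLX was at 102 to 109 CPM and 102 to 115 CPM, a log2 fold change of 0.06 (95% interval -0.04 to 0.15). The upper ends of the intervals for MXD4 (0.14) and MNT (0.20) are below the estimates with OmoMYC (1.07 and 0.66), although the difference between the experiments was not tested.

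The remaining genes of the network moved in both directions with OmoMYC. MYCL, the third MYC gene, was at 17.6, 16.9 and 17.6 CPM with EGFP and at 15.5, 12.4 and 13.3 CPM with OmoMYC, a log2 fold change of -0.34 (adjusted p = 0.0150) that became -0.61 with the GC and length trend removed. MLXIP, a glucose-responsive partner of MLX also known as MondoA, was at 128, 151 and 173 CPM with EGFP and at 215, 214 and 232 CPM with OmoMYC, a log2 fold change of 0.55 (adjusted p = 0.00123) that became 0.16 with the GC and length trend removed. Without OmoMYC replicate 2, 1 of the pair MYCL and MLXIP was called. MLXIPL was listed in the parental table only, where its mean was 4.85 CPM with DMSO and 4.81 CPM with dTAG47. ARRDC4, a known target of MLXIP and MLX, rose from 12.0 to 18.8 CPM with OmoMYC (log2 fold change 0.65, adjusted p = 0.000359). TXNIP, the other target listed, stood under 2 identifiers in the OmoMYC table, with log2 fold changes of 0.49 (adjusted p = 0.0208) and 0.79 (adjusted p = 0.00584). Reads of TXNIP may be split between its identifiers, so its values are uncertain.

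Genes that work with the network were described from lists drawn up from general knowledge, with earlier results of these data known. Each list was set beside the median log2 fold change of all genes, 0.01, and the 53% of genes called. Of 18 listed coactivators of MYC proteins, HCFC1 and KAT2A were at 0 and 0.09 CPM with EGFP, against 413 and 157 CPM with DMSO. They were not tested with OmoMYC. Their values in the OmoMYC experiment are uncertain, and no absence of their transcripts is read from them. Of the 16 tested, 7 were induced, 2 suppressed and 7 not called, with a median of 0.17. The acetyltransferases CREBBP (0.82, adjusted p = 3.58e-05) and EP300 (0.39, adjusted p = 0.000789) and the elongation factor SUPT5H (0.45, adjusted p = 0.00254) had the largest changes. This direction depended on the processing, since 6 were induced and 7 suppressed, with a median of -0.02, when the GC and length trend was removed, which gave 0.44 for CREBBP, 0.20 for EP300 and 0.15 for SUPT5H. Of 16 corepressor genes, 4 were induced, 3 suppressed and 9 not called, with a median of -0.03. RBBP7, a histone-binding subunit of deacetylase complexes, was suppressed (-0.50, adjusted p = 0.000407), whereas BRMS1, a SIN3 complex subunit (0.43, adjusted p = 0.00467), and ZBTB17, the MYC-binding factor MIZ1 (0.42, adjusted p = 0.00547), were induced. ZBTB17 was not called with the GC and length trend removed (0.10, adjusted p = 0.0590), and BRMS1 was then 0.19.

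Of 13 listed partners of MGA in PRC1.6, RING1 was at 0.07 CPM with EGFP and was not tested with OmoMYC. In parental cells with DMSO it was at 38.6 CPM, under another identifier. Of the 12 partners tested, 7 were suppressed, none was induced and 5 were not called, with a median of -0.31. PCGF6, the Polycomb ring finger protein that defines the complex, was suppressed, from 15.7 to 9.42 CPM (log2 fold change -0.74, adjusted p = 0.000672). CBX3 (-0.54, adjusted p = 0.00203), which encodes heterochromatin protein 1 gamma, and the DNA-binding subunit E2F6 (-0.41, adjusted p = 0.00651) were suppressed as well. With the GC and length trend removed 8 were suppressed and 1 induced, with a median of -0.19, PCGF6 at -0.48 and CBX3 at -0.18. Of 5 tested germ-cell genes, a class that this complex is known to silence, STAG3, a meiotic cohesin subunit, was induced (0.91, adjusted p = 3.30e-05), TDRKH, a piRNA pathway gene, was suppressed (-0.31, adjusted p = 0.0142), and 3 were not called.

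Of 15 entries for genes that act on the stability of MYC proteins (HUWE1 stands under 2 identifiers), 9 were suppressed, 3 induced and 3 not called, with a median of -0.33. With EGFP, HUWE1 was at 25.9 and 11.4 CPM under its identifiers, against 743 CPM in parental cells with DMSO, so its values are uncertain. The mitotic kinase CDK1 (-1.03, adjusted p = 0.000168), KIAA1524, which encodes the PP2A inhibitor CIP2A (-0.64, adjusted p = 0.000156), and AURKA, the kinase that binds and stabilizes N-MYC (-0.61, adjusted p = 5.86e-05), had the largest changes. CDK1 and AURKA are also cell cycle genes, and the members of this list include both stabilizers and ligases. With the GC and length trend removed CDK1 was -0.59 and KIAA1524 was -0.27. Of 12 tested genes known to be activated by MYC proteins, 6 were suppressed and 6 were not called, with a median of -0.17. LDHA (-0.58, adjusted p = 7.02e-05), NPM1 (-0.56, adjusted p = 0.000156) and ODC1 (-0.36, adjusted p = 0.00128), which act in glycolysis, ribosome assembly and polyamine synthesis, were named by size. Without OmoMYC replicate 1, 3 of these genes were called, and with the GC and length trend removed 9 were suppressed and 1 induced, with LDHA at -0.32 and NPM1 at -0.26.

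Of 13 genes known to be repressed by MYC proteins, 7 were induced, 2 suppressed and 4 not called, with a median of 0.22. NGFR, the low-affinity neurotrophin receptor, rose from 20.8 ± 2.68 to 452 ± 28.2 CPM (SD, n = 3 each), or 4.44 on the log2 scale (adjusted p = 4.25e-10). CLU (1.28, adjusted p = 5.68e-06), which encodes the chaperone clusterin, and the WNT antagonist DKK1 (1.08, adjusted p = 4.13e-05) were also induced, and the 2 suppressed genes were CDKN1A, the cell cycle inhibitor p21 (-0.34, adjusted p = 0.00587), and PDGFRB, a growth factor receptor that is also 1 of the mesenchymal markers (-0.35, adjusted p = 0.00403). The last 2 were at -0.54 and -0.69 with the GC and length trend removed. With dTAG47 in parental cells, a single gene of all these lists was called, LDHA (0.23, adjusted p = 0.0319), in the direction opposite to that with OmoMYC. With the GC and length trend removed 3 were called, LDHA (0.25, adjusted p = 1.20e-06), DKK1 (0.26, adjusted p = 0.0109) and TXNIP (0.24, adjusted p = 0.0300).

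**Figure D5:**
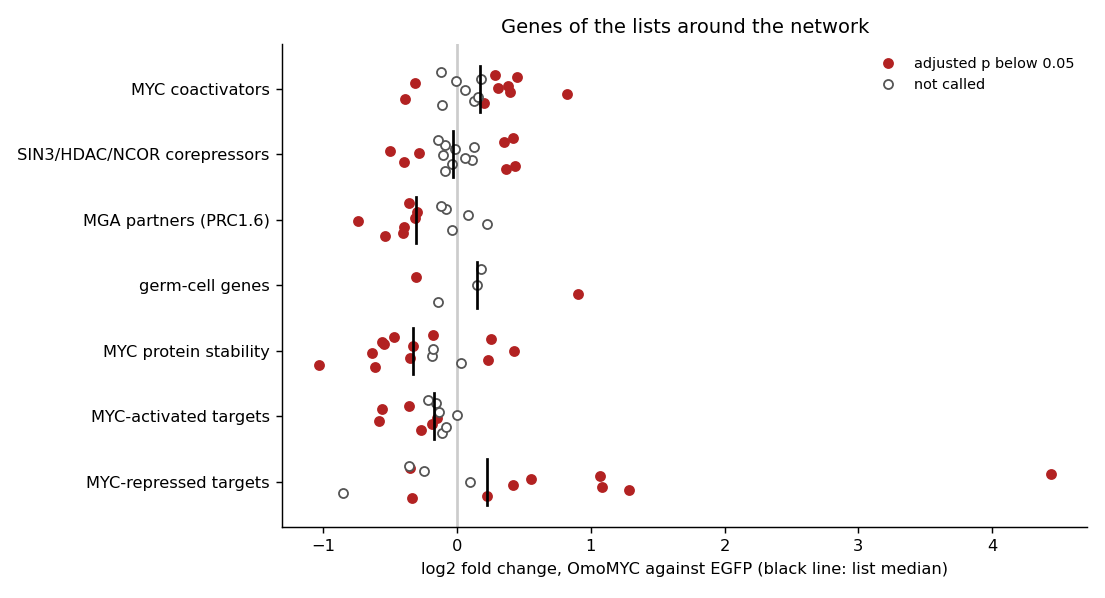
Log2 fold changes, OmoMYC against EGFP, of the tested genes of 7 lists (1 point per identifier), with the list median as a black line and called genes filled. The median is lowest for genes of MYC protein stability at -0.33 and for MGA partners at -0.31, and NGFR at 4.44 is the point at the far right.

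For each called member other than MYC, the genes whose log2 CPM followed it most closely were ranked by Pearson's r over the 14 libraries, each table centred on its own mean, among 11967 genes. These points share their libraries and the OmoMYC contrast, so r is a description. MXD4 was followed by MAP3K3, CHRD and ARID5A (each r = 0.99) and MNT by ARHGEF10L, TTYH3 and GAA (each r = 0.99). MXD1 was followed by MPPED2, DENND5B and FRRS1L (each r = 0.96). MXD3 was followed by CHAF1B (r = 0.97), MOV10 (r = 0.95) and MKI67 (r = 0.95), and MYCN by CENPV (r = 0.97), TNS3 (r = 0.96) and CCDC3 (r = 0.96). Within the 8 parental libraries alone, r with these genes was lower in each case, for example 0.79 for MAP3K3 with MXD4 and 0.85 for CHAF1B with MXD3.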

How the data were processed

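RNA-seq was performed on ribosome-depleted total RNA of 14 CHP-134 libraries, grouped by their labels. The authors aligned reads to hg19 with STAR and counted them per gene with featureCounts, and the deposited tables hold those raw counts, with no scaling applied. The versions, annotation, strand setting and handling of multi-mapped reads are not given in the sources used here. The authors' methods name DESeq2, which was run here as an alternative.

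Each experiment was analysed on its own in R 4.3.3. Genes were filtered with filterByExpr and scaled by TMM in edgeR 4.0.16, and the treatment was tested with the robust quasi-likelihood test, with Benjamini-Hochberg adjustment across every tested gene and an FDR threshold of 0.05. Intervals at 95% were taken from the standard error by the normal approximation. CPM, RPKM and fold changes were computed here. Exon lengths, GC content (of the longest transcript) and coordinates were read from a GENCODE release lifted to GRCh37 (the same sequence as hg19) (16960 of 17810 and 18616 of 19143 identifiers matched). Some identifiers did not match, so the exons counted may differ from those measured. The libraries hold 28060817 to 53451641 counts, and replicates differed by more than read sampling, so the spread between libraries limits the precision. Alternatives were DESeq2 1.42.0, limma-voom (limma 3.58.1), other scaling and filters, a replicate block, a factor for parental replicates, leaving out each library and, added after the data were seen, glmTreat, a correction for GC content and length, and scaling without MYC. The fits were tested on simulated data.

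The text names all members, MYCL, MLXIP, MLXIPL, TXNIP and ARRDC4, the 3 called genes of each list with the largest absolute change and a mean of at least 1 CPM (fewer where fewer were called), and the 3 genes most like each called member. One of the adrenergic markers, and sums that include it, are not reported here. Markers and the suppressed genes of the MYC-repressed list were named after their values were seen. The members and lists were chosen with earlier results of these data known. Same-numbered libraries were at most weakly correlated in their deviations (-0.08 to 0.26 and 0.00 to 0.14), so numbers were not taken as pairs. The split of the DMSO replicates was shared only in part by the dTAG47 libraries. Correlations between DMSO and dTAG47 libraries were 0.00 to 0.22 within replicates 1 and 2 or 3 and 4 and -0.20 to -0.01 across them. The main fit has no term for this split, and the fit with the factor is given beside it.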

Additional observations from a re-analysis of the deposited data

Results flagged for a closer look

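The spread of each member was examined in the 20 groups of 4 libraries (10 members with DMSO and with dTAG47), and in 2 of them a library was farther from the others than Dixon's 95% limit allows. Chance alone flags about 1 group in 20. MYCN was at 2790 CPM in DMSO replicate 3, and the nearest DMSO library was at 2647 CPM, a gap of 0.932 of the group's range. MGA was at 230.4 CPM in dTAG47 replicate 2, and the nearest dTAG47 library was at 214 CPM, a gap of 0.859 of the range. Without DMSO replicate 3 or without dTAG47 replicate 2, no member was called between dTAG47 and DMSO.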

How the results depend on the processing

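With OmoMYC against EGFP, no member changed direction under any alternative, and 4 calls were lost, all when glmTreat asked for more than 1.5-fold, which left 2 members called. Leaving out 1 library gave 6 to 8 members called and 45 to 65 called list entries (56 with all libraries). A replicate block gave 7 members called, MXI1 being added. The pairing by number had no support in the labels, and not every library correlated best with its own number. With dTAG47 against DMSO, 1 member was called with the replicate block, 1 with the GC and length correction, 1 with both, 2 with the factor for replicates 1 and 2 against 3 and 4, 2 with replicates 3 and 4 alone, and 0 with replicates 1 and 2 alone or with any 1 library left out. Over all genes, 23 were called, against 668 with the block (306 higher, 362 lower), 794 with the factor (374 and 420), 126 with the GC and length correction (78 and 48), 59 with DESeq2 (44 and 15) and 6 to 84 with 1 library left out. Signs turned for values near 0: MAX was -0.010 with the GC and length correction, -0.011 with the block added, and -0.0046 with replicates 3 and 4 alone. MXD4 was -0.018, -0.019 and -0.026 under the same settings, with a range of -0.020 to 0.060 when 1 library was left out, and MGA was 0.0046 with the correction and 0.0047 with the block added. The cause was not tested. With the longest annotated transcript as the length, the share of MYCN in the summed RPKM was 89.4% with EGFP, 85.6% with OmoMYC, 89.6% with DMSO and 89.9% with dTAG47. At this depth MYC, with 16 to 43 counts per library outside the OmoMYC cells, is the least precisely measured member.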
